A study of Mus musculus with 6 samples.

Results

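The genes of the mitochondrial genome were the 37 of 47729 genes in the deposited tables whose symbol begins with mt-. They comprised 13 protein-coding genes, 2 rRNA genes and 22 tRNA genes. Interscapular brown adipose tissue (BAT) was taken from male wild-type C57BL/6J mice that were fed from 6 to 10 weeks of age either a 45% high-fat diet (HFD, n = 3 mice) or the standard rodent diet, called the low-fat diet (LFD, n = 3 mice). Total RNA was depleted of rRNA and sequenced, and each mouse gave 1 library. Per the study's methods, the mice of each diet were chosen for having the greatest, medium and least fat mass in their group, so the 3 mice span the range of the group rather than being a random draw. The libraries held 17156991 to 21603487 counts, and they were separate mice, so the spread between them includes the spread between animals.

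The mitochondrial genome is a small circular DNA present in many copies per cell. Its mRNAs encode core subunits of complexes I, III, IV and V of oxidative phosphorylation, its rRNAs form the mitochondrial ribosome, and its tRNAs serve translation inside the organelle, while every protein that copies, transcribes and matures these RNAs comes from the nucleus. Each strand is transcribed as a long precursor that is then cut at the tRNAs, and brown adipocytes are rich in mitochondria, where the uncoupling protein UCP1 turns respiration into heat. In whole tissue, fewer cells of a type and less RNA per cell cannot be told apart.

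Of the 37 genes, 28 were annotated on the plus strand of the mitochondrial chromosome in GRCm38 and 9 on the minus strand, the latter being mt-Nd6 and 8 tRNA genes. Genes on this chromosome abut or overlap, so some bases belong to more than 1 gene. The stretches where mt-Atp8 runs into mt-Atp6 (chrM:7912-7984) and mt-Nd4l into mt-Nd4 (chrM:10152-10188) are shown to place the bases annotated in both genes. Capitals mark the 43 and the 7 shared bases in the plus-strand sequences, taken from the GENCODE M21 transcripts on GRCm38.
mt-Atp8 and mt-Atp6 overlap: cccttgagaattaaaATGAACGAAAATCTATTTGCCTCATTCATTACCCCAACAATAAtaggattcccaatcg
mt-Nd4l and mt-Nd4 overlap: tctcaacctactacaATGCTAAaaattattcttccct

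Mitochondrially encoded RNA made up a large and variable part of every library. The 37 genes took 22.7, 16.5 and 8.50% of the expected counts in the HFD mice (15.9% ± 7.12, SD, n = 3) and 13.8, 9.12 and 3.87% in the LFD mice (8.92% ± 4.96, SD, n = 3). The HFD share was the higher in each of the 3 pairs of mice with the same replicate number, a number whose meaning the labels do not state. Yet the diets overlapped and the difference between the means, 6.96 percentage points, was smaller than the SD of the HFD mice. The protein-coding genes alone took 9.89, 8.0 and 4.16% in the HFD mice against 5.35, 3.8 and 1.44% in the LFD mice. Replicate 3 was the lowest mouse of its diet, in both diets.

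**Figure D1:**
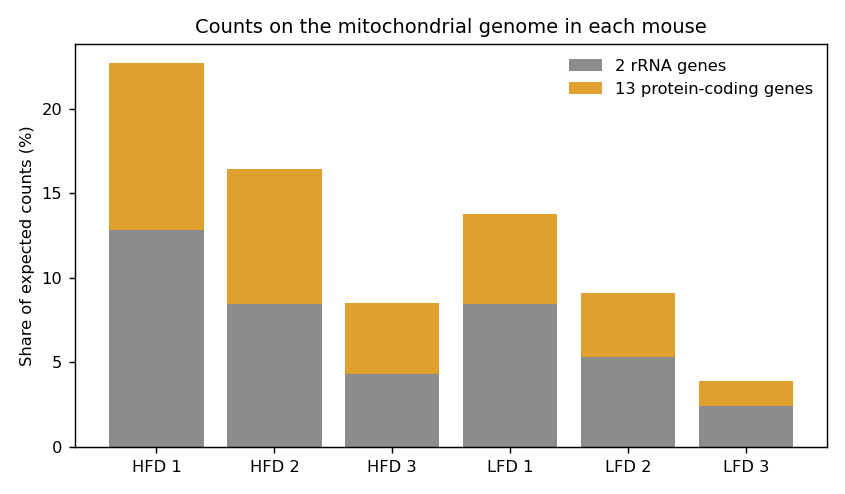
Stacked bars give the share of expected counts (%) on the 2 rRNA genes (grey) and the 13 protein-coding genes (yellow) of the mitochondrial genome in each of the 6 mice; the tRNA genes are too low to be seen. Total bars run from 3.87% in LFD replicate 3 to 22.7% in HFD replicate 1, and the diets overlap.

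Markers of several cell types were at unequal levels between the diets in the same libraries, although edgeR called 0 of them, as it called 0 of all genes tested. The summed level of 20 skeletal muscle markers was 145, 417 and 31.9 TPM (a level that corrects for transcript length and library size) in the HFD mice and 6819, 16250 and 2324 TPM in the LFD mice, with all 20 lower in HFD and none of them at 0 in any mouse. The summed level of 12 brown adipocyte markers was 3435, 5108 and 1169 TPM in the HFD mice and 876, 186 and 183 TPM in the LFD mice. Most of the sum in each HFD mouse was Ucp1. Of the 12 markers, 9 were higher in HFD and 3 lower. Lhx8, a lower one, was at 3.65, 3.22 and 2.91 TPM in HFD and 6.37, 14.8 and 18.5 TPM in LFD. Its diets did not overlap, and its log2 fold change was -1.43 (SE 0.36, edgeR adjusted p 0.241). Adrb3, also lower, had a log2 fold change of -0.36 (SE 0.77). Ucp1, the defining thermogenic marker, stood at 2728, 4021 and 796 TPM in the HFD mice and at 443, 11.0 and 76.0 TPM in the LFD mice. It was thus detected in every mouse of the tissue labelled BAT, at very unequal levels. The median log2 fold change was -6.17 over the muscle list and 1.61 over the brown adipocyte list. Blood and immune cell lists also lay mostly higher in HFD. T and NK cell markers had a median of 2.00, with 10 of 11 tested higher and 8 of the 11 with all HFD mice above all LFD mice, against 6.72% of all genes. Trac was the 1 lower, at a log2 fold change of -2.11 (SE 1.18). Red cell markers had a median of 1.31 (5 of 5 higher) and macrophage markers one of 0.41 (9 of 12 higher). The summed levels of both lists overlapped between diets. Red cell markers summed to 18038, 10182 and 14667 TPM in HFD and 3278, 15191 and 5849 TPM in LFD. Of these, 0 of 5 were higher in all 3 same-numbered pairs. Macrophage markers summed to 1999, 2514 and 4150 TPM in HFD and 638, 2752 and 4615 TPM in LFD. Over all nuclear and marker lists together, DESeq2 with its default settings called 25 genes, beside 411 of 29856 (1.38%) over all genes. The 25 are not split here by list or direction, so they do not speak for any single list. Muscle and brown adipocytes both carry many mitochondria, and the part of any of these lists in the values below was not tested.

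Several protein-coding genes had a near-identical nuclear copy to which the counting assigned reads. Such copies are stretches of mitochondrial DNA that entered a chromosome, and 11 annotated transcripts with an alignment of at least 75 bases at 95% identity or more were found. The 6 copies with a mean of at least 10 counts, all unprocessed pseudogenes, lay side by side on the minus strand of chromosome 1 between 24611535 and 24616197 (GRCm38). They were Gm28661, Gm28438, Gm29216, Gm10925, Gm28439 and Gm10222, which align to mt-Co2, mt-Nd3, mt-Co1, mt-Atp6, mt-Nd4 and mt-Nd4l in that order. Together, nuclear copies took 0.267 to 2.18% of a library and 6.32 to 8.78% of the sum of mitochondrial and copy counts. A copy on the same stretch, Gm28437, which is identical to mt-Co3 over 783 bases, was listed at 0 in every mouse.

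The ends of 3 genes and their copies are shown because the annotated copy stops 3 bases before the mitochondrial gene does and is identical up to there. Capitals mark the 3 bases that only the mitochondrial annotation holds, and sequences are printed in the sense of the gene. The positions are chrM:7654-7696 and chr1:24614885-24614924 for the first pair, chrM:8565-8607 and chr1:24613974-24614013 for the next, and chrM:10131-10173 and chr1:24612407-24612446 for the last.
mt-Co2 end: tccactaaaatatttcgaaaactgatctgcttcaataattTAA
Gm28661 end: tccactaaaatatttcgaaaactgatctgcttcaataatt
mt-Atp6 end: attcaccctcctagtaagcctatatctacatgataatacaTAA
Gm10925 end: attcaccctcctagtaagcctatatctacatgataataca
mt-Nd4l end: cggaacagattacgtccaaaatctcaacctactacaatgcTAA
Gm10222 end: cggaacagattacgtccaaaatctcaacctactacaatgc
For mt-Nd3 and Gm28438 the window around the only base that differs over 345 bases is given (chrM:9459-9481 and chr1:24613097-24613119), with that base in capitals.
mt-Nd3 window: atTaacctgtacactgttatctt
Gm28438 window: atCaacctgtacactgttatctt

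The share that stayed with the mitochondrial gene differed widely between pairs. Of the counts on mt-Co2 and Gm28661 together, mt-Co2 kept 0.877 to 1.10% across the 6 mice, which left it 342 to 3647 counts while the copy held 38677 to 342631. The posterior SD that the counting software RSEM gave for the copy was 72.7 to 144% of the mt-Co2 count, so the split itself was hardly determined. mt-Nd4l kept 18.7 to 27.0% of its pair, and mt-Nd3 kept 43.1 to 75.9%. mt-Nd4 kept 83.4 to 89.7%, mt-Atp6 84.6 to 99.9% and mt-Co1 95.4 to 98.1%. For mt-Atp6, whose copy is identical over all of its 678 bases, the copy held 42807 counts in HFD replicate 1 and 112 in HFD replicate 2. The other 7 protein-coding genes and the rRNA genes had no copy with a mean of 10 counts or more, so few or none of their counts were assigned to a copy. For mt-Co3, however, Gm28437 at 0 counts had a posterior SD of 307 to 6358 counts, which was 0.589 to 2.19% of the mt-Co3 count. For mt-Atp6 the posterior SD of the copy was 3.14 to 5.62% of the count of the gene.

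**Figure D2:**
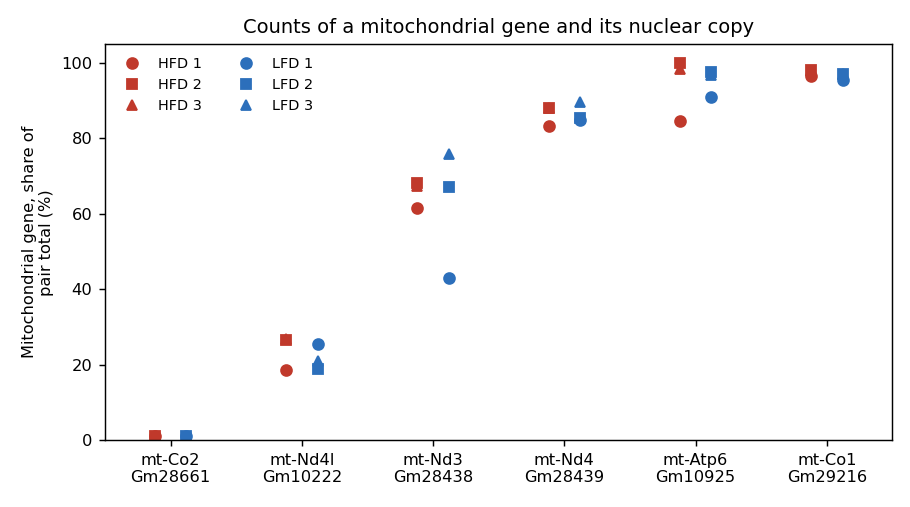
For 6 mitochondrial genes, the share (%) of the summed expected counts of the gene and its chromosome 1 copy that was assigned to the gene is plotted for each mouse (red HFD, blue LFD; symbols give the replicate number). mt-Co2 sits near 1% in all 6 mice, mt-Nd3 spreads from 43.1 to 75.9%, and mt-Co1 lies above 95% in all 6 mice.

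The order of the mRNAs by level was nearly the same in every mouse. By mean TPM over the 6 mice the order was mt-Co3, mt-Co1, mt-Atp6, mt-Atp8, mt-Nd1, mt-Nd3, mt-Cytb, mt-Nd2, mt-Nd4, mt-Nd5, mt-Nd6, mt-Nd4l and mt-Co2. Neighbours that changed places in some mice were mt-Co3 and mt-Co1 (mt-Co3 higher in 5 of 6 mice), mt-Atp8 and mt-Nd1 (5 of 6), mt-Nd1 and mt-Nd3 (4 of 6) and mt-Nd2 and mt-Nd4 (3 of 6). All other neighbours kept their order in 6 of 6 mice. When the counts of each nuclear copy were added to its mitochondrial gene, mt-Co2 moved from rank 13 to rank 3, from a mean of 163 to 15562 TPM, and mt-Nd6 was the lowest of the 13.

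**Figure D3:**
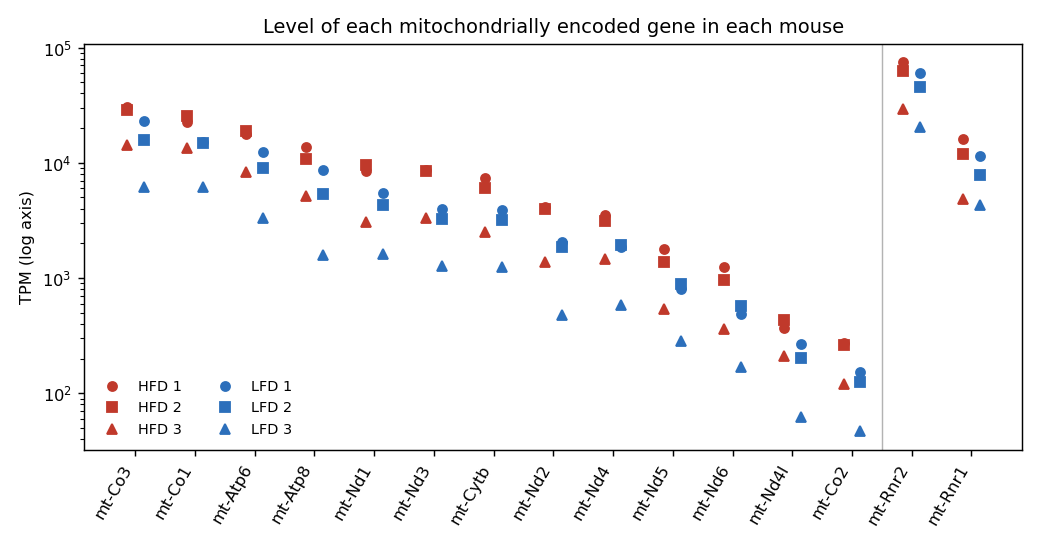
TPM on a log axis is plotted for the 13 mRNAs, ordered by mean, and the 2 rRNAs (right of the line) in each mouse (red HFD, blue LFD; symbols give the replicate number). HFD lies above LFD in each same-numbered pair for these genes, the replicate 3 mice are the lowest of their diet, and the diets overlap for every gene.

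No mitochondrially encoded gene passed the test between diets, although all 16 that could be tested had a positive log2 fold change (11 of 16 when the summed mitochondrial mRNA was taken as the library size, which moved the median of all genes from -0.05 to -1.33). These 16 were the 13 mRNAs, the 2 rRNAs and mt-Ts1, and 0 of them passed edgeR's quasi-likelihood test, where a call needed a log2 fold change beyond 1.5 in either direction together with an adjusted p under 0.01. The other 21, all tRNA genes, were too low to be tested. Across all 17668 genes tested 0 (0%) were called, the lowest adjusted p being 0.170, and 1851 (10.5%) had an unadjusted p under 0.05. None of the 16 had an unadjusted p under 0.05, against 3.86% of all genes with HFD higher, and none had HFD mice all above LFD mice, a pattern seen for 6.72% of all genes, whereas DESeq2 with its default settings called 411 of 29856 genes (1.38%) and also 0 of the 16. The log2 fold change was positive for 16 of 16, against 45.6% of all genes, and the HFD mouse was the higher in all 3 same-numbered pairs for 16 of 16, against 21.1%. The 16 share libraries and precursor RNAs, so they are not separate observations.

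The complex IV genes encode the catalytic core of cytochrome c oxidase, which hands electrons to oxygen. mt-Co1 (chrM:5328-6872), the largest of them, was at 22661, 25418 and 13312 TPM in the HFD mice and at 15015, 14753 and 6220 TPM in the LFD mice. mt-Co3 (chrM:8607-9390) was at 30250, 28861 and 14301 TPM in HFD and 23017, 15755 and 6152 TPM in LFD. In both genes HFD replicate 3 lay below LFD replicates 1 and 2, so the diets overlapped. Their log2 fold changes were 0.92 (SE 1.01) for mt-Co1 and 0.81 (SE 1.01) for mt-Co3, the lowest of the mRNAs, with edgeR adjusted p-values of 0.846 and 0.867. mt-Co2 (chrM:7013-7696), the subunit that receives electrons from cytochrome c, was at 273, 264 and 120 TPM in HFD and 152, 124 and 46.9 TPM in LFD as deposited. With Gm28661 added, mt-Co2 stood at 25901, 25266 and 10864 TPM in HFD and 14677, 11311 and 5351 TPM in LFD, and its log2 fold change was 1.13 (SE 0.92) in place of 1.16 (SE 0.73). The far higher level thus left the difference between diets at a like size, with edgeR adjusted p-values of 0.766 and 0.663.

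Complex I takes electrons from NADH, and 7 of its membrane-arm subunits are mitochondrially encoded. Their log2 fold changes ran from 0.99 to 1.40 with a median of 1.13. mt-Nd1 (chrM:2751-3707) was at 8487, 9624 and 3080 TPM in HFD and 5502, 4287 and 1623 TPM in LFD. mt-Nd4 (chrM:10167-11544) was at 3547, 3114 and 1463 TPM in HFD and 1846, 1935 and 582 TPM in LFD. Again HFD replicate 3 fell among the LFD mice, and the fold changes, 1.01 (SE 0.90) and 1.09 (SE 0.83), came with edgeR adjusted p-values of 0.793 and 0.741. mt-Nd3 (chrM:9459-9806) had the highest log2 fold change of the mRNAs, 1.40 (SE 0.80, edgeR adjusted p 0.624), with 8596, 8458 and 3289 TPM in HFD and 3982, 3279 and 1276 TPM in LFD. With Gm28438 added the log2 fold change of mt-Nd3 was 1.05 (SE 0.96), and mt-Nd2 and mt-Nd6 then had the highest values, 1.27 and 1.32.

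mt-Nd6 (chrM:13552-14070) is the sole protein gene on the minus strand. It was at 1248, 969 and 363 TPM in HFD and at 487, 572 and 167 TPM in LFD, the lowest level of the mRNAs that have no nuclear copy counted beside them. Its log2 fold change was 1.32 (SE 0.80, edgeR adjusted p 0.647), in the same direction as and within 1 SE of those of the other 12 mRNAs. Whether the counting used the strand of the reads is not given in the sources used here. Reads of mt-Nd6 cannot then be told apart from reads of the opposite strand, so the strands were not compared. mt-Nd2, mt-Nd5 and mt-Nd4l completed complex I with log2 fold changes of 1.27, 1.13 and 0.99.

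Complex III passes electrons from ubiquinol to cytochrome c, and its cytochrome b is encoded by mt-Cytb (chrM:14145-15288). mt-Cytb was at 7322, 6051 and 2506 TPM in HFD and at 3925, 3206 and 1240 TPM in LFD, with a log2 fold change of 1.10 (SE 0.89, edgeR adjusted p 0.766). The complex V genes encode membrane parts of ATP synthase and are read from 1 shared mRNA. mt-Atp8 (chrM:7766-7969) was at 13601, 10847 and 5147 TPM in HFD and 8716, 5314 and 1599 TPM in LFD. mt-Atp6 (chrM:7927-8607) was at 17619, 19062 and 8401 TPM in HFD and 12325, 8997 and 3312 TPM in LFD. The complex V genes thus had like differences, with log2 fold changes of 1.02 (SE 0.91) and 0.97 (SE 0.92) and edgeR adjusted p-values of 0.793 and 0.809.

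Taking the replicate number as a block narrowed the errors of all 16 genes without bringing any past the threshold. The labels do not state what the number marks. Deviations from the diet's mean correlated across genes by 0.416 on average over the 3 pairs that share a number and by -0.204 over the 6 that do not. Deviations cancel out within a diet for each gene, so a positive average over the former pairs largely fixes a negative one over the latter. These correlations come from the same counts as the fits, so they are no separate ground for the pairing. With the block, the median log2 fold change of the mRNAs was 1.22 in place of 1.09, 11 of the 13 mRNAs and mt-Ts1 had an unadjusted p under 0.05 with HFD higher, against 8.75% of all genes, and the lowest edgeR adjusted p was 0.0754 (mt-Co2). At an adjusted p under 0.05 the block called 184 genes (1.04%), of which 0 were mitochondrially encoded.

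**Figure D4:**
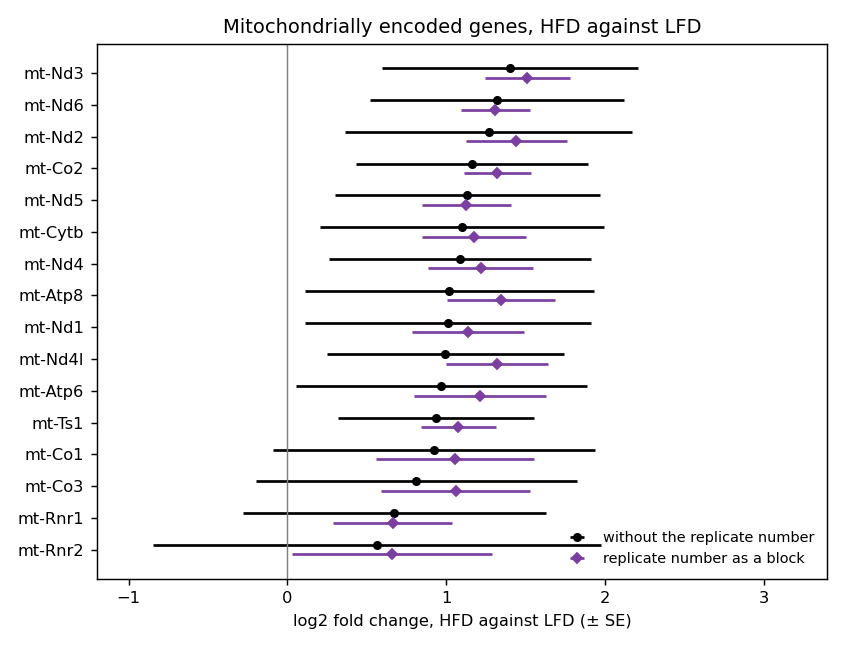
Points give the log2 fold change (HFD against LFD) of the 16 tested genes, bars ± 1 SE, from edgeR without (black) and with (purple) the replicate number as a block. The SEs were back-calculated from the test's F statistic. All 16 points lie above 0 in both fits (11 of 16 when scaled to the summed mitochondrial mRNA), from 0.57 (mt-Rnr2) to 1.40 (mt-Nd3) without the block, and the bars are shorter with it.

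Single mice moved these values. Without HFD replicate 1 the median log2 fold change of the mRNAs was 0.53, and without LFD replicate 3 it was 0.64, against 1.87 without LFD replicate 1. No gene of the 16 was called in any of these fits.

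The rRNA genes had the smallest log2 fold changes of the 16. mt-Rnr2 (16S rRNA of the large subunit, chrM:1094-2675) was at 74306, 62496 and 29171 TPM in HFD and 59642, 45110 and 20612 TPM in LFD, and mt-Rnr1 (12S rRNA of the small subunit, chrM:70-1024) at 16122, 11986 and 4850 TPM in HFD and 11392, 7807 and 4299 TPM in LFD. Their log2 fold changes were 0.57 (SE 1.41) and 0.67 (SE 0.95), with edgeR adjusted p-values of 0.947 and 0.891. Without HFD replicate 1 both were below 0, at -0.07 for mt-Rnr2 and -0.11 for mt-Rnr1. The depletion kit used on these libraries removes cytoplasmic and mitochondrial rRNA, so what was counted is what it left.

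Within the mitochondrial RNA, the rRNA share separated the diets. Of the counts on mitochondrial rRNA and mRNA, rRNA made up 56.4, 51.4 and 51.0% in the HFD mice (52.9% ± 3.01, SD, n = 3) and 61.2, 58.4 and 62.8% in the LFD mice (60.8% ± 2.23, SD, n = 3). Every HFD mouse lay below every LFD mouse, and the difference, HFD minus LFD, was -7.83 percentage points, larger than the SD of either diet. This share was examined after its values were seen, and no test was run on it. With nuclear copies added to the mRNAs the shares were 51.5, 47.2 and 47.1% against 56.8, 54.7 and 58.7%, and on the TPM scale the diets were likewise apart. How far depletion differed between libraries was not tested. The ratio of the rRNAs to each other on the TPM scale, mt-Rnr2 over mt-Rnr1, overlapped between the diets at 4.61 to 6.02 in HFD and 4.79 to 5.78 in LFD.

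**Figure D5:**
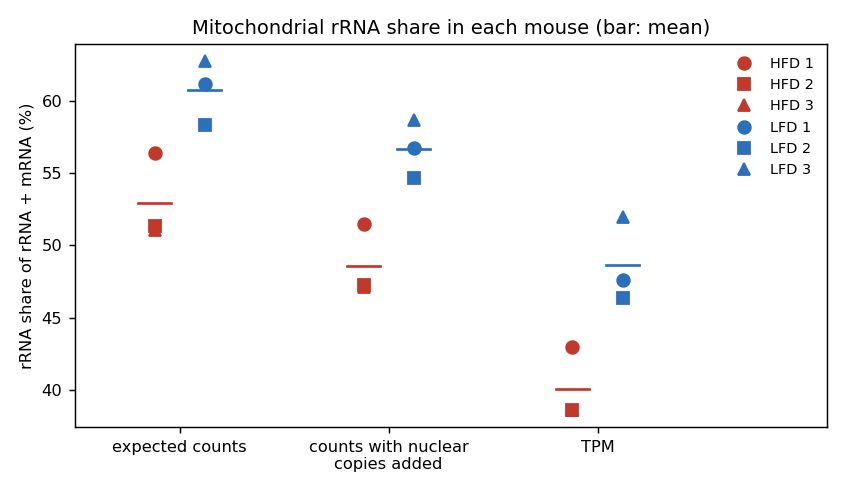
The share (%) of rRNA in the sum of mitochondrial rRNA and mRNA is plotted for each mouse (red HFD, blue LFD; symbols give the replicate number, bars the mean) in expected counts, in counts with nuclear copies added, and in TPM. The axis does not start at 0. On each scale the 3 HFD mice lie below the 3 LFD mice, at 51.0 to 56.4% against 58.4 to 62.8% in expected counts.

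Among the mRNAs themselves, the division of counts differed little between diets. mt-Co1 took 34.2, 37.7 and 42.3% of the mRNA counts in the HFD mice and 34.8, 40.6 and 44.2% in the LFD mice. mt-Nd3 took 2.42, 2.34 and 1.95% in HFD and 1.72, 1.68 and 1.69% in LFD, and mt-Co2 took 0.171, 0.163 and 0.158% in HFD and 0.146, 0.142 and 0.138% in LFD. These were the 2 of 13 genes whose shares did not overlap between diets, each with an exact two-sided permutation p of 0.1, the smallest that 3 mice against 3 can give, before any adjustment for the 13 comparisons. With nuclear copies added, mt-Nd3 took 3.21, 2.91 and 2.47% in HFD and 3.33, 2.16 and 1.88% in LFD, 0 of 13 shares were apart, and the smallest exact permutation p was 0.3. The complex IV share of the mRNA counts was lower in HFD in 3 of 3 pairs, at 56.4, 58.5 and 64.4% against 60.8, 61.7 and 65.5%, but overlapped between diets.

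The tRNA genes were at the edge of what these libraries can measure. They are 59 to 75 bases long, no longer than the 75-base reads, so 21 of the 22 had a deposited effective length of 0 in every mouse and all 22 were listed at 0 TPM. No count was assigned to 9 of them in any mouse, and 12 had at most 22 counts over the 6 mice together. The remaining gene, mt-Ts1, a serine tRNA, held 704, 510 and 330 counts in HFD and 361, 281 and 96 in LFD, which was 96.5% of the 2364 tRNA counts. Its log2 fold change was 0.94 (SE 0.62, edgeR adjusted p 0.690), with HFD higher in all 3 same-numbered pairs and the diets overlapping.

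mt-Ts1 (chrM:6870-6938) lies on the minus strand, tail to tail with mt-Co1, and their last 3 bases are the complement of each other. The sequences are shown to place that overlap, in capitals, in mt-Ts1 and in the last 30 bases of mt-Co1 (chrM:6843-6872), each in its own sense.
mt-Ts1: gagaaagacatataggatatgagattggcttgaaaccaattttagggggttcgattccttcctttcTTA
mt-Co1 end: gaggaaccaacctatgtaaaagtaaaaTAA
In every mouse mt-Ts1 held 0.0852 to 0.0971% as many counts as mt-Co1, although mt-Co1 itself ran from 109313 to 730231 counts. Whether the counting used the strand of the reads is not given in the sources used here, and reads of mt-Ts1 cannot then be told apart from reads across the end of the mt-Co1 transcript.

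Nuclear genes of the same complexes had lower median log2 fold changes than their mitochondrially encoded partners. The median over the nuclear subunits of complex I was 0.34 (36 genes, 34 above 0) beside 1.13 for the 7 mitochondrial ones. For complex III it was 0.43 (9 genes, 9 above 0) beside 1.10, for complex IV 0.39 (15 genes, 14 above 0) beside 0.92, and for complex V 0.24 (15 genes, 10 above 0) beside 0.99. None of these genes was called by edgeR, and the difference between nuclear and mitochondrial medians was not tested. Ndufv1, which holds the NADH-binding site of complex I, had the highest log2 fold change of its list, 0.70 (SE 0.71), and Uqcrc2, a core protein of complex III, that of its own, 1.00 (SE 0.82).

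Single nuclear subunits departed far from the median of their list. Cox6a2 is a complex IV subunit of heart and skeletal muscle, and the study also names it a signature gene of brown adipocytes. It was at 1.05, 2.89 and 1.71 TPM in HFD and 46.1, 116 and 22.4 TPM in LFD. The diets did not overlap, and its log2 fold change of -4.88 (SE 0.72) had an edgeR adjusted p of 0.170, equal to the lowest over all genes tested. This call depended on the tool, since DESeq2 with its default settings called Cox6a2 at an adjusted p of 1.1e-09, while over the other alternatives its adjusted p ran from 0.0165 to 0.876, with 0.0375 under the replicate block. Cox7a1, a complex IV subunit of muscle and brown fat, was at 916, 930 and 224 TPM in HFD and 297, 125 and 45.9 TPM in LFD, a log2 fold change of 2.18 (SE 1.03, edgeR adjusted p 0.530). Atp5g1, a gene for the c ring of ATP synthase, had a log2 fold change of -1.0 (SE 0.26, edgeR adjusted p 0.242), with 38.7, 57.4 and 91.9 TPM in HFD and 114, 193 and 146 TPM in LFD. Nuclear genes below 0 numbered 2 of 36 in complex I, 1 of 15 in complex IV and 5 of 15 in complex V. Those of complex I, Ndufa2 and Ndufb3, were both at -0.07 (SE 0.53 and 0.64), well within 1 SE of 0. The mitochondrially encoded genes of these complexes were all above 0 in this fit, though not when scaled to the summed mitochondrial mRNA.

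The nuclear genes that act on mitochondrial DNA and RNA had list medians from 0.01 to 0.31, with single genes from -0.56 to 0.93. The median log2 fold change was 0.01 for 13 genes of mitochondrial DNA maintenance (7 above 0), 0.19 for 10 of transcription (8 above 0) and 0.31 for 19 of RNA processing and stability (14 above 0). It was 0.27 for 7 genes of rRNA modification (6 above 0), 0.12 for 16 of tRNA modification (12 above 0) and 0.19 for 22 of tRNA charging (15 above 0), and 0 genes of these lists were called. Polg, the mitochondrial DNA polymerase, had a log2 fold change of -0.08 (SE 0.20), and Mterf4, which targets a methyltransferase to the mitochondrial ribosome, had 0.44 (SE 0.30).

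Lrpprc, which stabilizes mitochondrial mRNAs, was at 45.5, 63.2 and 39.9 TPM in HFD and 40.5, 32.8 and 27.0 TPM in LFD, a log2 fold change of 0.71 (SE 0.46, edgeR adjusted p 0.681). Qrsl1, a subunit of the amidotransferase that makes glutaminyl-tRNA in mitochondria, was at 5.65, 7.95 and 7.81 TPM in HFD and 4.47, 5.56 and 4.97 TPM in LFD, a log2 fold change of 0.71 (SE 0.29, edgeR adjusted p 0.464). Lrpprc overlapped between diets and Qrsl1 did not. Lars2, the mitochondrial leucyl-tRNA synthetase, was listed at 1915, 2275 and 2270 TPM in HFD and 3092, 3779 and 4255 TPM in LFD, which was most of the summed level of the charging list of 2206 to 4617 TPM. Gars, the next highest of that list, averaged 65.7 TPM in HFD and 79.3 TPM in LFD. Whether all reads listed under Lars2 came from its mRNA was not tested, so its level and difference need caution. The log2 fold change of Lars2 was -0.55 (SE 0.65, edgeR adjusted p 0.857), opposite in sign to that of the mitochondrial mRNAs.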

How the data were processed

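The deposited tables held, per the labels and file headers, 1 library of BAT per mouse (3 HFD, 3 LFD; single-end 75-base reads, rRNA depletion with Ribo-Zero Gold). The authors trimmed reads with Trimmomatic 0.36 and quantified them with RSEM 1.3.0 on GRCm38.p4 (Ensembl annotation), and deposited RSEM's expected counts, TPM, lengths and posterior SDs per gene. The submitters' processing notes also name DESeq2 1.10.1. Strand use in counting is not given in the sources used here.

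Expected counts were rounded and fitted across all genes with edgeR 4.0.16 in R 4.3.3 (low-count filter, TMM scaling, quasi-likelihood test, Benjamini-Hochberg adjustment over all genes tested), HFD against LFD without a block. A call needed a log2 fold change beyond 1.5 in either direction together with an adjusted p under 0.01. SEs of edgeR log2 fold changes were back-calculated, as the absolute log2 fold change over the square root of the test's F statistic. The fit was also run on simulated counts, but the outcome of that run is not reported here, so it does not bear on the lack of calls. Alternatives were DESeq2 1.42.0, limma 3.58.1 on log2(TPM + 1), other scalings and filters, a block for the replicate number, a skeletal muscle covariate and leaving out each mouse. The numbers come from the labels, where the titles of both diets are numbered alike, and do not state what they mark. Deviations from the diet means correlated in each of the 3 same-numbered pairs (0.229 to 0.522). This correlation comes from the same counts as the fits, so it is no separate ground for pairing the mice. The block and the same-numbered pairs rest on the numbering of the titles alone. The common dispersion was 0.201.

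Nuclear copies were sought by aligning 141730 other reference transcripts (GENCODE M21, GRCm38) with BLAST+ 2.17.0 to a mitochondrial chromosome pieced together from its annotated transcripts (15365 bases, with 57 gap bases, up to base 15422; the control region was not used). Adding copy counts to their mitochondrial genes, the rRNA share and the alternatives that use them were chosen after the data were seen. The genes, lists and tests were chosen with earlier results of these data known. All mitochondrially encoded genes are described. Nuclear genes named are examples from those with the 2 highest or 2 lowest log2 fold changes or the 2 highest mean TPM of their list. Ucp1, Lhx8 and Adrb3 are from the brown adipocyte list and Trac is from the T and NK cell list. Of the tables' columns, 0 belonged to other samples.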

Additional observations from a re-analysis of the deposited data

How the results depend on the processing

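The mitochondrial mRNAs held 167 counts or more in every mouse, and the values rest on 3 mice a diet. How depth or the number of mice bears on the lack of calls was not tested. Adding nuclear copies left 0 genes called and a median of 1.05 in place of 1.09. No mitochondrially encoded gene was called under any of 17 alternatives, and their lowest adjusted p, 0.0754, came from the edgeR fit with the replicate block, which changed no call. Of 271 values of the 16 genes under alternatives, 264 kept their direction. The median log2 fold change of the mRNAs was 0.53 to 1.87 over fits without 1 mouse, and 4.54 with the skeletal muscle score as covariate, a score that nearly coincides with diet. With the summed mitochondrial mRNA as library size, which moved the median of all genes from -0.05 to -1.33 and that of these mRNAs to 0.09, log2 fold changes turned to -0.45 for mt-Rnr1, -0.46 for mt-Rnr2, -0.068 for mt-Co1, -0.070 for mt-Co3 and -0.034 for mt-Ts1, and to -0.22 for Ndufv1, -0.38 for Lrpprc, -0.43 for Qrsl1 and -0.69 for Mterf4. Over fits without 1 mouse, mt-Rnr1 ran from -0.11 (without HFD replicate 1) to 1.52, mt-Rnr2 from -0.075 (without HFD replicate 1) to 1.38, and Polg from -0.20 to 0.037 (without LFD replicate 1). The cause was not tested. All genes called numbered 0 in the chosen fit, 411 with DESeq2, 28 with that library size and 1 with limma, DESeq2 calling Cox6a2 at a log2 fold change of -4.88, and genes of the nuclear and marker lists 0, 25 with DESeq2 and 11 with that library size. Mitochondrial mRNA shares apart between diets numbered 2, or 0 with nuclear copies added, and 2 to 4 without 1 mouse. The TPM rank of mt-Co2 was 13, or 3 with nuclear copies added.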
